A study of Homo sapiens with 30 samples.

Results

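NFBD1, encoded by MDC1, was depleted with a short hairpin RNA in unirradiated U2OS cells, a human osteosarcoma line, and messenger RNA was compared with that of cells given a control hairpin. The 3 arrays titled NFBD1 shRNA at 0 Gy were set against the 3 titled control shRNA at 0 Gy of the same experiment, among 30 Illumina bead arrays in all. Every gene with a probe detected at p under 0.01 on at least 3 of the 24 arrays of that experiment was included, which gave 12419 of the 18665 genes that any probe names. The stated aim of the study was to find what NFBD1 does to gene expression with and without ionizing radiation, and which of those events depend on p53.

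The NFBD1 group carried the retroviral construct pSIREN NFBD1sh b and its control carried pSIREN neg. RNA of both was taken 4 h after mock irradiation, which came 2 days after infection. The other groups used below were NFBD1 shRNA at 5 Gy, NFBD1 with p53 shRNA at 0 and at 5 Gy, and their controls, namely control shRNA at 5 Gy and p53 shRNA at 0 and at 5 Gy. A later experiment held a different hairpin, pSIREN NFBD1a, and a pSIREN neg control of its own, both unirradiated. Each group had 3 arrays. The labels name no selection or cloning of infected cells and do not say that replicates were separate cultures, so the p-values measure the spread between these samples, which may be technical. No hairpin sequence is printed, as none was among the sources used.

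MDC1 is a chromatin adaptor of the DNA damage response. It binds the phosphorylated form of histone H2AX beside a double-strand break, holds the ATM kinase and the MRN complex there, and is the docking site from which RNF8 and RNF168 bring in 53BP1 and BRCA1. A short hairpin RNA is cut to a small RNA that guides Argonaute to matching transcripts, which are then degraded or translated less.

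Between 37.4% and 38.9% of the 48802 probes were detected on the NFBD1 shRNA arrays, and between 36.5% and 39.2% on the control arrays. Pairs of arrays within a group correlated at 0.986 to 0.993 over the genes tested, and pairs between the groups at 0.985 to 0.994. With chips numbered by the order of the samples, replicates 1 of both groups shared a chip, as did replicates 2. Replicates 3 then lay on different chips. The sample titles name no chip, so all statements on chips below rest on this order. Of 14 genes listed as markers of the osteosarcoma line 11 were detected on all 6 arrays, against 4 of 12 epithelial, 2 of 9 blood cell, 6 of 10 neural and 4 of 7 endothelial markers. PTPRC, CD3E, KRT5, KRT14, KRT19, CDH5 and GFAP were detected on none of the 6, while EPCAM, KRT18, CD14, LYZ, TUBB3, NEFL, MAP2, SNAP25, PECAM1 and VWF were detected on all of them. Just inside the limit for inclusion, 229 genes had a probe that reached 3 arrays (median log2 intensity 4.68), and just outside it 371 genes had one that reached 2 (median 4.63), while the median of all genes tested was 7.42.

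The transcript of MDC1 was lower on every array with the hairpin. Its log2 intensity was 7.04, 7.92 and 7.80 with NFBD1 shRNA, against 8.71, 9.05 and 9.26 with control shRNA. The groups did not overlap, and NFBD1 replicate 1 was the lowest array. This was a 2.67-fold fall (log2 -1.42 ± 0.24 SE, limma adjusted p = 0.00303, n = 3 each), and it was -1.67 and -1.12 within the 2 shared chips. All adjusted p-values here are Benjamini-Hochberg values over all genes tested. Fitted on these 6 arrays alone, the MDC1 change was -1.43 with an adjusted p of 0.0987. In the authors' deposited matrix the MDC1 change was smaller, -0.98 (limma adjusted p = 0.00572).

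Few genes changed with MDC1, and most of those that did were lower. At a limma adjusted p under 0.05, 55 of 12419 genes were called (0.443%): 50 were lower with NFBD1 shRNA (0.403%) and 5 were higher (0.0403%). The 3 arrays of each group did not overlap for any of the 55, while 11.9% of all genes tested had groups that did not overlap. The falls had a median log2 change of -0.86, the rises one of 0.80, and all genes tested one of 0.01. At an unadjusted p under 0.05 there were 734 genes (5.91%). Arrays of the same replicate number deviated together, and with the replicate number as a block 122 genes were called, 106 of them lower and 16 higher. All 55 were among these. Fitted on the 6 arrays alone the count was 20, of which 18 were lower and 2 higher. The count also depended on single arrays: it was 31, 37 and 41 without NFBD1 replicates 1, 2 and 3, and 38, 28 and 35 without control replicates 1, 2 and 3. Calls, and all fits that left out an array, are from the fit without the replicate block unless the block is named. Calls lost without an array were not tried with the block. Sizes depended on the scaling for dimmer genes: 18 of the 55 changes were over 1.5 times larger here than in the authors' deposited matrix, none of them in a gene with a mean log2 intensity above 8.10. In bulk samples such as these, fewer cells of a type and less RNA per cell cannot be told apart.

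**Figure D1:**
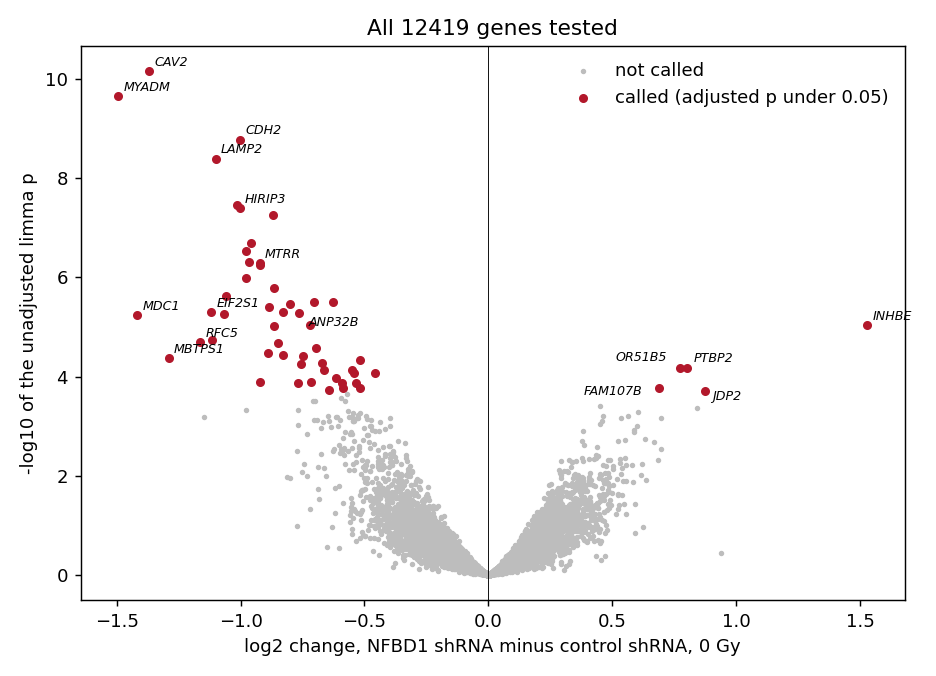
For all 12419 genes, the x axis is the log2 change, NFBD1 shRNA minus control shRNA at 0 Gy, and the y axis is -log10 of the unadjusted limma p. Red points are the 55 called genes (50 left of 0 and 5 right of it, with MYADM and CAV2 at the smallest p-values), grey points all others.

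The called genes are described below by what their products do. These groups were formed after the calls were known, so no group was tested.

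Genes of the plasma membrane and of cell contacts held the largest fall. MYADM, a membrane protein of lipid rafts, read 8.65, 8.51 and 8.87 with NFBD1 shRNA and 10.19, 10.17 and 10.15 with control shRNA. The control arrays lay closer together than the NFBD1 arrays, and the groups did not overlap. That is a 2.82-fold fall (log2 -1.49 ± 0.13 SE, adjusted p = 1.39e-06). CAV2, caveolin 2, a coat protein of caveolae, read 7.66, 7.75 and 7.96 with NFBD1 shRNA and 9.04, 9.31 and 9.12 with control shRNA, a 2.59-fold fall (-1.37 ± 0.12 SE, adjusted p = 8.66e-07). A second detected probe of each of these genes also fell (unadjusted p under 0.05). CDH2, N-cadherin, the adhesion molecule of mesenchymal cells, read 10.04, 10.17 and 10.14 with NFBD1 shRNA and 11.10, 11.14 and 11.11 with control shRNA. Its fall was 2.00-fold (adjusted p = 6.9e-06), with arrays within each group closer together than the groups. TAX1BP3, a PDZ-domain protein, fell by 0.98, LRIG1, an inhibitor of receptor tyrosine kinases, fell by 0.87, and F3, tissue factor, which starts blood clotting, fell by 0.92 on the log2 scale. The F3 call held in 1 of the 6 fits that each left out an array (adjusted p up to 0.188), and those of MYADM, CAV2, CDH2, TAX1BP3 and LRIG1 held in all 6.

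The promoters of MYADM and CAV2 are shown because these genes had the 2 smallest p-values. Each is the 250 bases before the most upstream listed start, from RefSeq on GRCh38.p14, plus strand, 5′ to 3′, MYADM at chr19:53866121-53866370 and CAV2 at chr7:116499488-116499737. Capitals mark the GC box GGGCGG on either strand.
MYADM: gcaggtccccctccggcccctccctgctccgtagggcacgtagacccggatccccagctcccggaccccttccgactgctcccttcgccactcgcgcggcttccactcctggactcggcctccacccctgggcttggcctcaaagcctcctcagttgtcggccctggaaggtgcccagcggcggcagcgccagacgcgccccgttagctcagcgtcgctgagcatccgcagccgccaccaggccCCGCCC
CAV2: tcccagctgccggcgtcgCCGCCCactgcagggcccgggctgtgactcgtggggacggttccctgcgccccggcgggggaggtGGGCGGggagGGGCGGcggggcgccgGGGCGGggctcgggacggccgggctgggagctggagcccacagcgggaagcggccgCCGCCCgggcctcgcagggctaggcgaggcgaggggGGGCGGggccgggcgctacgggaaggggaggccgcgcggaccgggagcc
The MYADM window held 1 GC box and the CAV2 window 6, and neither held any of the other 4 motifs searched, given below. Of the 50 genes that fell, 40 had at least 1 window in the table, 53 windows in all. Some genes have several windows, so shares are given by window and, for the GC box, the CCAAT box and the last motif, also by gene. A GC box stood in 71.7% of these windows, in 60.4% of the 14756 windows of all genes tested and in 42.6% of all 35116 windows. By gene it stood in at least 1 window of 77.5% of the 40 genes and of 71.6% of all genes tested with a window. The CCAAT box, CCAAT, stood in 43.4%, 33.1% and 32.0% of the windows of the same 3 sets. By gene it stood in 47.5% of the genes that fell and 41.8% of all genes tested with a window. The TATA box, TATAAA, stood in 7.55%, 6.67% and 10.7% of the windows of the 3 sets. The AP-1 site, TGANTCA, stood in 5.66%, 4.92% and 6.57%. The core of the ATF4 response element, TGATGNAA, stood in 3.77%, 2.00% and 3.14%, but both windows of the first set belong to 1 gene. By gene it stood in 2.5% of the genes that fell and 2.75% of all genes tested. Both strands were searched, no motif lies within another, and a match is not a binding site.

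**Figure D2:**
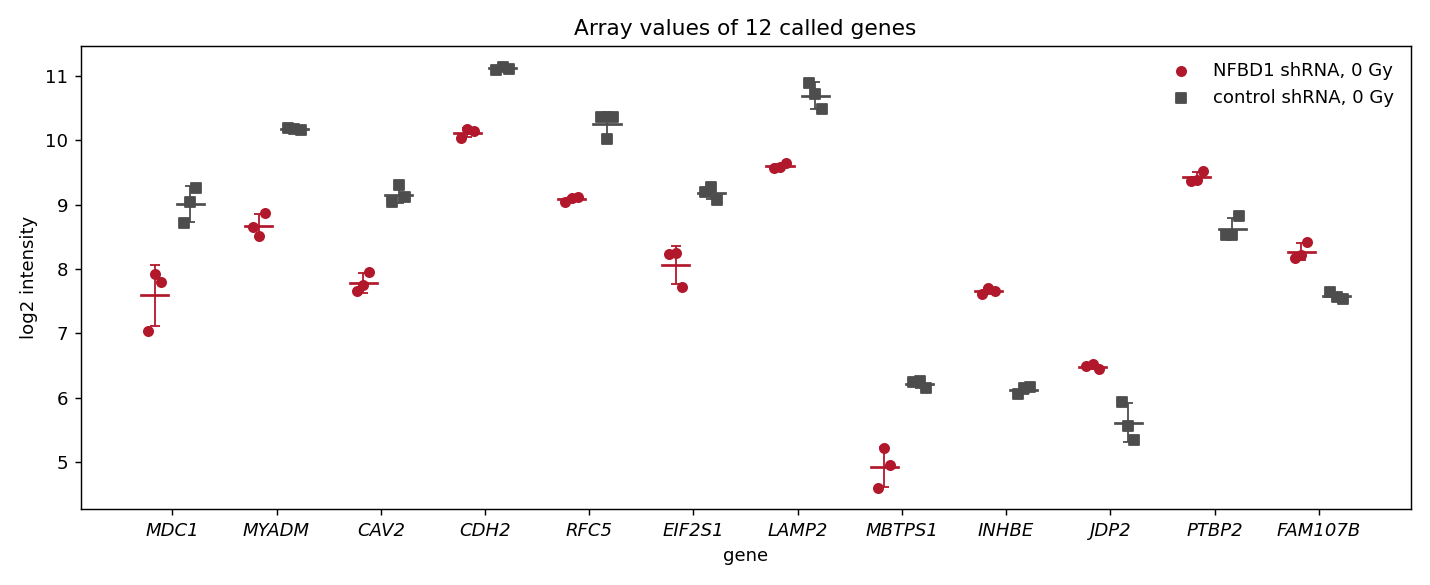
Log2 intensity of 12 called genes on each array, where red circles are the 3 NFBD1 shRNA arrays and grey squares the 3 control shRNA arrays, with a line at the mean and bars of 1 SD. The red points lie below the grey ones for MDC1 to MBTPS1 and above them for INHBE, JDP2, PTBP2 and FAM107B, without overlap.

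Some of the called genes encode enzymes or carriers of the Golgi and the secretory pathway, a class that was not counted over all genes tested. MBTPS1, the site-1 protease that cleaves SREBP and ATF6 in the Golgi, was a dim probe and read 4.60, 5.22 and 4.96 with NFBD1 shRNA, where 2 of 3 arrays detected it, and 6.24, 6.26 and 6.15 with control shRNA, where all 3 did. The log2 change was -1.29 ± 0.25 SE (adjusted p = 0.0150), with no fold given since 1 of the arrays did not detect it. In the authors' deposited matrix the change of MBTPS1 was -0.31 and not called (adjusted p = 0.0705), and the call was lost without any of the arrays but NFBD1 replicate 2 (adjusted p 0.0525 to 0.131). B4GALT4, a galactosyltransferase, read 7.43, 7.09 and 7.42 with NFBD1 shRNA and 8.54, 8.22 and 8.38 with control shRNA (-1.07 ± 0.18 SE, 2.10-fold, adjusted p = 0.00293). CHSY3, which builds chondroitin sulfate chains, read 7.30, 6.92 and 6.98 with NFBD1 shRNA and 8.38, 8.19 and 7.80 with control shRNA (-1.06 ± 0.17 SE, 2.08-fold, adjusted p = 0.00195). Every NFBD1 array lay below every control array for both enzymes. In the authors' deposited matrix B4GALT4 changed by -0.66 and CHSY3 by -0.61. PRRC1, a protein of the early secretory pathway, fell by 0.96, and MCFD2, which with LMAN1 carries clotting factors V and VIII out of the ER, fell by 0.86. CANT1, a Golgi nucleotidase, fell by 0.66, and C1GALT1, the core 1 synthase of O-glycans, fell by 0.52. The CANT1 call held in 2 of the 6 fits without an array and that of C1GALT1 in none (adjusted p up to 0.159 and 0.269).

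Other called genes have roles in lysosomes, endosomes or autophagy. In the lists of such genes few or none were called, as among all genes tested, of which 0.403% were called lower. Of 37 tested lysosomal genes 1 was called lower (median log2 change -0.01), and of 25 genes of BLOC and HPS complexes 1 was (0.03). Of 24 autophagy genes (0.01) and 52 vesicle traffic genes (-0.00) none was called. The called genes STAM, RAB8B, ATG4D and SLC66A3 are on none of these lists, so the list counts do not cover them. HPS3, a subunit of the BLOC-2 complex of lysosome-related organelles, read 5.09, 5.56 and 5.84 with NFBD1 shRNA and 6.66, 6.68 and 6.49 with control shRNA (-1.11 ± 0.20 SE, 2.17-fold, adjusted p = 0.00822). Its call was lost without NFBD1 replicate 1 (adjusted p = 0.0932) or control replicate 2 (0.0614), and the change of HPS3 was -0.34 in the authors' deposited matrix. STAM, an endosomal sorting protein, fell by 0.75, RAB8B, a GTPase of exocytic traffic, fell by 0.70, and ATG4D, a protease that processes ATG8 proteins, fell by 0.85. SLC66A3, a membrane protein of the PQ-loop family, fell by 0.98. Calls of RAB8B and SLC66A3 held without any 1 array, those of STAM and ATG4D in 3 and in 2 of the 6 fits.

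LAMP2, a heavily glycosylated protein of the lysosomal membrane, is made as splice forms that share their lumenal part and differ in the tail. Form A is the receptor of chaperone-mediated autophagy. The probe that stands for the gene, annotated to transcript variant B, read 9.56, 9.58 and 9.64 with NFBD1 shRNA and 10.88, 10.72 and 10.48 with control shRNA (-1.10 ± 0.12 SE, 2.14-fold, adjusted p = 1.26e-05). The other variant B probe read 8.65, 8.80 and 8.69 with NFBD1 shRNA and 9.96, 9.84 and 9.63 with control shRNA, a change of -1.10. The 3 probes of variant A changed by 0.10, -0.01 and 0.02, and 1 probe of another transcript by 0.11. On these arrays the variant B probes were lower without overlap, while the variant A probes of both groups overlapped. The mean of the variant B probes minus that of the variant A probes was -0.20 ± 0.19 with NFBD1 shRNA and 0.94 ± 0.10 with control shRNA (SD, n = 3 each). An exact two-sided permutation test over samples gave p = 0.1, the smallest that 3 against 3 can give. The variant B probe had already been called on these same arrays. The outcome was therefore close to fixed in advance, and this p-value adds no support. Averaged over all its detected probes, LAMP2 changed by -0.33 and was not called (adjusted p = 0.166). In the other 3 comparisons of the same hairpin the variant B probes changed by -1.39 and -1.37, by -1.12 and -1.09, and by -1.17 and -1.29, and the variant A probes by -0.05 to 0.16.

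**Figure D3:**
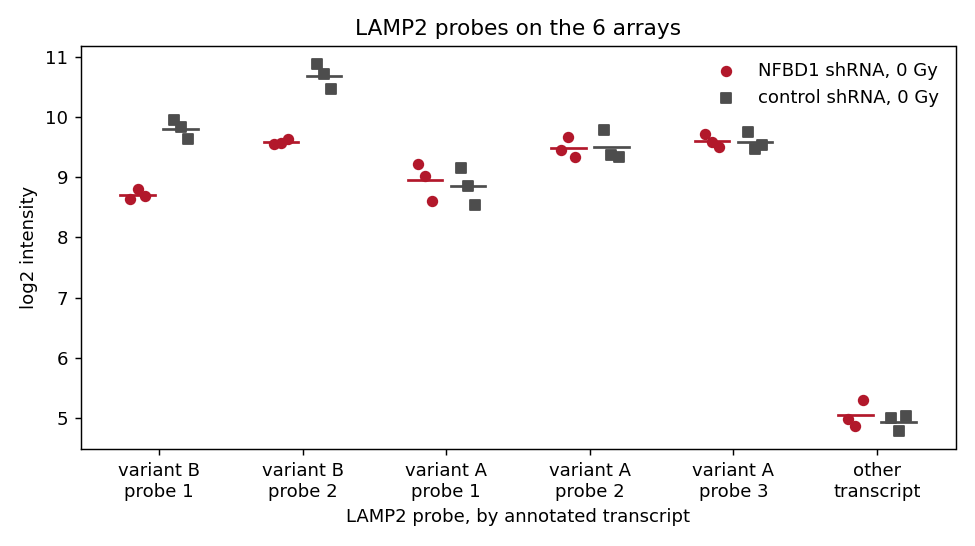
Log2 intensity of the 6 LAMP2 probes on each array, by the transcript they are annotated to, where red circles are NFBD1 shRNA, grey squares control shRNA, and lines are means of 3 arrays. Only for the 2 variant B probes do all NFBD1 arrays lie below all control arrays.

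Genes of translation and RNA processing were also among the calls. EIF2S1, the alpha subunit of eIF2, which carries the initiator tRNA and is the site where stress kinases phosphorylate the factor, read 8.23, 8.25 and 7.72 with NFBD1 shRNA and 9.20, 9.28 and 9.07 with control shRNA. The fall was 2.17-fold (-1.12 ± 0.19 SE, adjusted p = 0.00293). EIF1AX, which helps the small ribosomal subunit scan for the start codon, read 9.28, 9.34 and 9.32 with NFBD1 shRNA and 10.17, 9.92 and 10.24 with control shRNA, and fell by 0.80. LSM14A, an RNA-binding protein of processing bodies, fell by 0.63, NCBP1, the large subunit of the nuclear cap-binding complex, fell by 0.71, and THOC3, a subunit of the THO complex of mRNA export, fell by 0.89. CSTF2T, a cleavage stimulation factor of 3′ end formation, fell by 0.72. NCBP1 and THOC3 kept their calls in 1 and in 2 of the 6 fits without an array (adjusted p up to 0.239 and 0.127), CSTF2T in 5, and EIF2S1, EIF1AX and LSM14A in all.

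Among genes of DNA replication and chromatin, RFC5 fell furthest. RFC5 is a small subunit of replication factor C, which loads the PCNA clamp. It read 9.05, 9.10 and 9.11 with NFBD1 shRNA and 10.36, 10.03 and 10.36 with control shRNA (-1.16 ± 0.21 SE, 2.24-fold, adjusted p = 0.00861), and the groups did not overlap. The call was lost without NFBD1 replicate 1 (0.0551), control replicate 1 (0.0574) or control replicate 3 (0.0545). FEN1, the flap endonuclease of Okazaki fragment maturation, read 11.63, 11.78 and 11.79 with NFBD1 shRNA and 12.07, 12.32 and 12.18 with control shRNA, and its fall of 0.46 was the smallest of all calls. HIRIP3, a partner of the histone chaperone HIRA, fell by 1.00, ANP32B, a histone chaperone, by 0.76 and H3-3B, a gene of histone H3.3, by 0.75 on the log2 scale. TOPORS, a ubiquitin and SUMO ligase that binds topoisomerase I, changed by -0.83, INO80C, a subunit of the INO80 remodeller, by -0.64 and USP3, a deubiquitinase of histones H2A and H2B, by -0.59. FEN1, TOPORS, INO80C and USP3 each kept the call in 1 of the 6 fits without an array and H3-3B in 2, while HIRIP3 and ANP32B kept it in all.

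Genes of transcription and metabolism made up most of the other falls. MED21, a subunit of Mediator, fell by 0.97, STOX2 by 0.83 and POLR1F, a subunit of RNA polymerase I, by 0.53 on the log2 scale. In mitochondria, CISD2, an iron-sulfur protein of the outer membrane and the ER, fell by 0.88. TFB1M, which methylates mitochondrial ribosomal RNA, changed by -0.77, CS, citrate synthase, by -0.55 and SUCLA2, a subunit of succinyl-CoA ligase, by -0.54. MTRR, which keeps methionine synthase active, read 9.18, 9.13 and 9.56 with NFBD1 shRNA and 10.20, 10.19 and 10.25 with control shRNA (-0.92, adjusted p = 0.000581). VKORC1L1, a vitamin K epoxide reductase, read 9.23, 9.21 and 9.26 with NFBD1 shRNA and 10.33, 10.17 and 10.23 with control shRNA (-1.01, adjusted p = 8.38e-05). SPR, which makes tetrahydrobiopterin, changed by -0.67, and UCKL1, a uridine-cytidine kinase-like enzyme, by -0.70. Without any 1 array, MED21, STOX2, CISD2, MTRR and VKORC1L1 kept their calls, while CS, SUCLA2 and UCKL1 kept theirs in 2 of the 6 fits, TFB1M and POLR1F in 1 and SPR in 0.

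The remaining falls belong to signalling or to no shared role. STK3, the Hippo kinase MST2, changed by -0.62, PPP1CC, a catalytic subunit of protein phosphatase 1, by -0.52, and GPR137C by -0.59. FAM83D, which brings casein kinase 1 to the mitotic spindle, read 9.98, 10.10 and 10.15 with NFBD1 shRNA and 11.01, 11.02 and 10.97 with control shRNA (-0.92, adjusted p = 0.000581). AMMECR1 read 6.26, 6.14 and 6.35 with NFBD1 shRNA and 7.13, 7.10 and 7.13 with control shRNA (-0.87, adjusted p = 0.0001). The calls of FAM83D and AMMECR1 held without any 1 array, that of PPP1CC in 2 of the 6 fits, that of GPR137C in 1 and that of STK3 in 0.

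Of the 5 genes that rose, INHBE moved furthest. INHBE encodes the beta E subunit of activins and is a known target of the ATF4 and CHOP stress factors. It read 7.61, 7.70 and 7.65 with NFBD1 shRNA and 6.06, 6.15 and 6.17 with control shRNA, a 2.89-fold rise (log2 1.53 ± 0.27 SE, adjusted p = 0.00432). JDP2, a bZIP repressor that pairs with JUN and ATF factors, read 6.49, 6.53 and 6.44 with NFBD1 shRNA and 5.94, 5.56 and 5.34 with control shRNA (0.88 ± 0.19 SE, 1.83-fold, adjusted p = 0.0436). PTBP2, the neuronal polypyrimidine tract-binding protein, a splicing repressor, read 9.38, 9.38 and 9.52 with NFBD1 shRNA and 8.53, 8.53 and 8.82 with control shRNA (0.80 ± 0.16 SE, 1.74-fold, adjusted p = 0.0211). For each of these genes the lowest NFBD1 array lay above the highest control array. OR51B5, an olfactory receptor gene beside the beta-globin cluster, read 9.01, 8.68 and 8.59 with NFBD1 shRNA and 8.14, 7.79 and 8.02 with control shRNA (0.78 ± 0.16 SE, 1.71-fold, adjusted p = 0.0212). FAM107B read 8.18, 8.22 and 8.42 with NFBD1 shRNA and 7.64, 7.57 and 7.54 with control shRNA (0.69 ± 0.15 SE, 1.61-fold, adjusted p = 0.0403). In the authors' deposited matrix the changes were 0.69 for INHBE, 0.27 for JDP2 and 0.44 for FAM107B. INHBE kept its call without any 1 array. OR51B5 kept it in 2 of the 6 fits (adjusted p up to 0.173), JDP2 (0.329) and PTBP2 (0.141) in 1, and FAM107B (0.235) in 0.

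Other detected probes of the called genes were read as a check within the arrays. For 38 of the 55 genes there was none. The other 17 genes had 25 further probes, of which 22 moved the same way, 19 of them at an unadjusted p under 0.05. The 3 that did not are LAMP2 probes. Beyond the named genes, 10 of 4961 detected probes with no gene symbol were called, all lower.

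The lists of genes that work with MDC1, or that follow DNA damage, held few calls. Of all genes tested 0.443% were called, and at that share lists of these sizes may hold no call at all. The counts therefore say little about the listed genes. Of 25 tested genes of damage-site recruitment around MDC1 none was called (median log2 change 0.03). RIF1, which 53BP1 recruits, had 0.29 (adjusted p = 0.641), RNF168 had -0.40 (0.766) and BRCC3, a deubiquitinase of the BRCA1-A complex, had -0.38 (0.974). Of 45 tested p53 targets none was called (median 0.00, range -0.55 to 0.45), and 3 had an unadjusted p under 0.05. The nearest to a call was BCL2L1, which encodes the survival protein BCL-XL, at -0.55 (adjusted p = 0.105), and it was called with the replicate block (adjusted p = 0.00400). None of 31 DNA repair genes and none of 19 genes of checkpoint kinase signalling was called. Of 60 genes of G2/M and mitosis FAM83D was the 1 call (median 0.05), and of 10 genes of the clamp loaders RFC5 was (median 0.05). The other replication factor C subunits RFC1, RFC2, RFC3 and RFC4 changed by 0.15, 0.15, 0.01 and 0.13, and PCNA by -0.17.

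Genes of the integrated stress response, the ATF4 programme that follows eIF2 alpha phosphorylation, leaned upward. INHBE and JDP2 were called higher among 45 tested genes, where 0.0403% of all genes tested were, and none was called lower. INHBE kept its call without any 1 array and was called in the other 3 comparisons of this hairpin. JDP2 kept its call in 1 of the 6 fits without an array and was not called in the authors' deposited matrix. In those 3 comparisons JDP2 differed by 0.05, -0.05 and -0.21. The list was chosen with earlier results of these data known, so the lean is not independent of them. With 40 of 45 changes above 0, the median log2 change was 0.20, and it was 0.27 and 0.18 within the shared chips, while 52.3% of all genes tested were above 0. CTH, which makes cysteine, read 8.84, 8.99 and 8.91 with NFBD1 shRNA and 8.24, 8.52 and 8.22 with control shRNA, a difference of 0.59 that was not called (adjusted p = 0.143). VLDLR, a lipoprotein receptor, read 7.96, 7.62 and 8.10 with NFBD1 shRNA and 7.26, 7.31 and 7.36 with control shRNA, and its difference of 0.58 was called with the replicate block only. Asparagine synthetase, ASNS, differed by 0.37, ATF4 itself by 0.21 and DDIT3, which encodes CHOP, by 0.01. PSAT1, of serine synthesis, differed by -0.40.

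Caveolar genes leaned the other way. CAV2 and MYADM were the calls among 15 tested genes, and 0.403% of all genes tested were called lower. Of the 15 changes 13 were below 0 (47.7% of all genes tested were), and the median was -0.20. The list was chosen with earlier results of these data known, so the lean is not independent of them. Within the shared chips the median was smaller, -0.12 and -0.10. CAV1, the main coat protein, averaged 12.45 ± 0.31 with NFBD1 shRNA and 12.97 ± 0.14 with control shRNA (SD, n = 3 each), a difference of -0.52 that was not called (adjusted p = 0.463). The coat partners CAVIN1, CAVIN2 and CAVIN3 differed by -0.20, -0.21 and -0.33. EIF2S1 and EIF1AX were the calls among 40 translation initiation genes, whose median was 0.08. Of 40 interferon response genes, which can respond to double-stranded RNA, none was called (median 0.05), with HERC5 at 0.48 (adjusted p = 0.331) and IFIH1 at 0.49 (0.660).

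**Figure D4:**
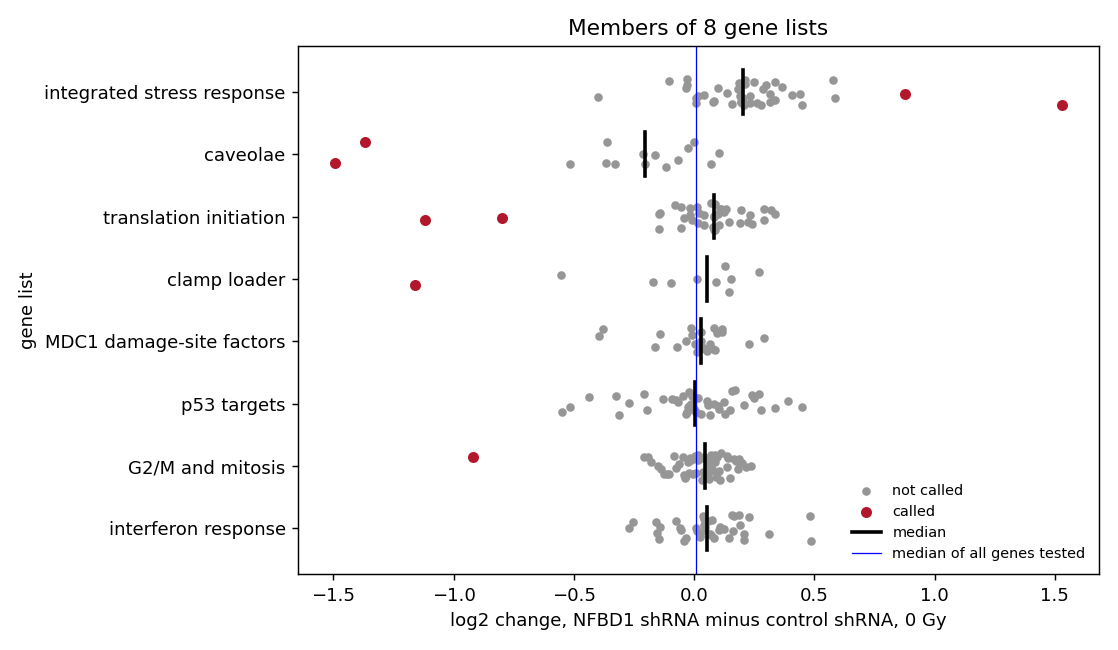
Log2 change of every tested member of 8 gene lists, NFBD1 shRNA minus control shRNA at 0 Gy, where each point is a gene (red if called), black bars are list medians, and the blue line is the median of all genes tested (0.01). The stress response list lies mostly right of 0 and the caveolar list mostly left of it.

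The replicate block added 67 genes, 56 lower and 11 higher, named here after their values were seen. PKIA, an inhibitor of protein kinase A, had the largest added fall (-1.15, adjusted p = 0.000176 with the block), and CD9, a tetraspanin, changed by -0.98. CCL2, a monocyte chemokine, changed by -0.72. MKX, a homeobox factor of tendon cells, had the largest added rise (0.84, adjusted p = 0.00436 with the block), and IL11, a cytokine, rose by 0.63 on the log2 scale.

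The same hairpin was also measured after 5 Gy and in cells with p53 shRNA, on arrays that share no sample with the comparison above. All 24 arrays were normalized together and share 1 estimate of spread. The sample titles do not say whether the groups came from separate infections, so the comparisons may not be independent. All 50 genes that fell in unirradiated cells were below 0 in each of these 3 comparisons, as were 51.4%, 47.9% and 51.3% of all genes tested. After 5 Gy 46 of them were called lower (1.09% of all genes tested were), with p53 shRNA at 0 Gy 39 were (0.459%), and with p53 shRNA at 5 Gy 38 were (0.652%). Their median log2 changes there were -0.87, -0.74 and -0.77, against -0.86 in unirradiated cells. In all 3 comparisons 37 of the 50 were called, among them MYADM, CAV2, CDH2, RFC5, EIF2S1, LAMP2 and HIRIP3. In none of them were MBTPS1, TFB1M, INO80C and FEN1 called. The shared calls make up 89.1% of the 55 and 34.0% of the 144 calls after 5 Gy (1.16% of genes), 74.5% of the 55 and 65.1% of the 63 with p53 shRNA at 0 Gy (0.507%), and 74.5% of the 55 and 46.6% of the 88 with p53 shRNA at 5 Gy (0.709%).

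MYADM is given as an example by group. It averaged 8.67 ± 0.18 with NFBD1 shRNA, 8.32 ± 0.22 with NFBD1 shRNA at 5 Gy, 8.62 ± 0.17 with NFBD1 and p53 shRNA at 0 Gy and 8.61 ± 0.10 with both at 5 Gy. Its controls, in the same order, averaged 10.17 ± 0.02, 9.98 ± 0.12, 9.83 ± 0.07 and 9.82 ± 0.23 (SD, n = 3 each). INHBE averaged 7.65 ± 0.04, 7.31 ± 0.56, 7.28 ± 0.21 and 7.55 ± 0.30 in the 4 NFBD1 groups, and 6.12 ± 0.06, 6.18 ± 0.72, 5.90 ± 0.19 and 6.17 ± 0.14 in their controls. INHBE and OR51B5 were called higher in all 3 other comparisons and PTBP2 in 2, where 0.0725%, 0.0483% and 0.0564% of all genes tested were called higher. JDP2 differed by 0.05, -0.05 and -0.21 there and FAM107B by 0.20, 0.27 and 0.39, none of them called.

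Whether the effect of the hairpin itself depended on dose or on p53 was tested as an interaction, with the same unirradiated arrays on one side. No gene was called for the difference between 0 and 5 Gy (385 genes at an unadjusted p under 0.05, 3.10%), and the 3 smallest p-values were those of SKIC3 (1.13), PALD1 (1.08) and UNK (0.65). No gene was called for the difference between cells without and with p53 shRNA either (154 genes, 1.24%), where C1orf21 (-0.80), CRYBG3 (0.88) and NTRK3 (0.51) came first. All 6 had an adjusted p of 1.00. JDP2 had 0.82 for the first difference and 0.93 for the second, neither called.

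A different hairpin against MDC1, NFBD1a, was measured in the later experiment with its own control and was normalized apart. MDC1 changed by -2.41 on the log2 scale (adjusted p = 5.01e-07), and 2884 of 10883 genes were called (26.5%), 1469 higher (13.5%) and 1415 lower (13%). These arrays were fitted apart, with their own estimate of spread. The SE with NFBD1a was 0.08 for MDC1 and 0.06 for MYADM, against 0.24 and 0.13 with NFBD1 shRNA. For MED21 it was 0.15 against 0.14. How far the spread accounts for the larger share of calls was not tested. Of the 55 genes, 15 were called in the same direction with NFBD1a, 4 in the opposite direction, and 36 were not called. The median of the 50 genes that fell was -0.86 with NFBD1 shRNA and -0.05 with NFBD1a.

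The difference between the hairpins was tested over all 30 arrays normalized together, as a difference of the 2 effects. It was called for 316 of 12419 genes (2.54%), 163 with a positive difference (1.31%) and 153 with a negative one (1.23%), and for 35 of the 55, 31 that fell and 4 that rose. These 55 were chosen on the NFBD1 shRNA arrays that also enter this test, so the count describes them and is not independent. When any 1 array was left out, 22 to 28 of the 55 differed. The count was 22 without NFBD1a replicate 3, and 23 without NFBD1 shRNA replicate 2, NFBD1a replicate 2 or replicate 2 or 3 of the NFBD1a control. Over all genes it was 162 to 312 without 1 array. Among the 37 genes that fell with NFBD1 shRNA in every comparison of the first experiment, 23 differed. MYADM changed by 0.17 with NFBD1a (difference -1.67 ± 0.17 SE, adjusted p = 2.69e-06), RFC5 by -0.02 (difference -1.14, adjusted p = 0.0242) and LAMP2 by 0.02 (difference -1.12, adjusted p = 0.000127). SLC66A3 rose with NFBD1a by 0.46 (difference -1.45, adjusted p = 5.58e-05). INHBE was lower with NFBD1a, by -1.41 on the log2 scale (difference 3.07 ± 0.37 SE, adjusted p = 2.22e-05).

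Other genes moved with both hairpins. CDH2 fell by 1.00 with NFBD1 shRNA and by 0.97 with NFBD1a on the log2 scale (difference -0.04 ± 0.13 SE, adjusted p = 0.970). CDH2 averaged 10.12 ± 0.07 with NFBD1 shRNA and 11.12 ± 0.02 in its control, and 9.67 ± 0.06 with NFBD1a and 10.64 ± 0.07 in the NFBD1a control (SD, n = 3 each). STK3 changed by -0.62 with NFBD1 shRNA and by -0.67 with NFBD1a (difference 0.04 ± 0.17 SE, adjusted p = 0.977). HIRIP3 fell by 0.51, EIF2S1 by 0.32 and FAM83D by 0.39 with NFBD1a, each called, where 13% of all genes were called lower. Each fell less than with NFBD1 shRNA (differences -0.52, -0.81 and -0.52). None of these differences was called (adjusted p = 0.0835, 0.0722 and 0.108). CAV2 fell with NFBD1a by 0.73, less than with NFBD1 shRNA (difference -0.64 ± 0.15 SE, adjusted p = 0.0216). MDC1 was lower with NFBD1a than with NFBD1 shRNA relative to control (difference 1.00 ± 0.31 SE), which was not called (adjusted p = 0.0887).

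The gene lists also read differently in the later experiment. With NFBD1a 13.5% of all genes were called higher and 13% lower, against 0.0403% and 0.403% with NFBD1 shRNA. The experiments were also fitted with separate estimates of spread. Counts of calls from the experiments are therefore not on the same footing. Of 45 p53 targets none was called with NFBD1 shRNA, while 27 were higher and 1 lower with NFBD1a. Of 60 G2/M genes 1 was lower with NFBD1 shRNA and 41 were with NFBD1a. Of the stress response genes, 2 of 45 were higher and none lower with NFBD1 shRNA, while 3 of 44 were higher and 16 lower with NFBD1a. Of the caveolar genes, 2 of 15 were lower and none higher with NFBD1 shRNA. With NFBD1a 2 of 14 caveolar genes were higher and 4 lower (median log2 change 0.01). The difference between hairpins was not tested for a list as a whole, and the experiments differ in arrays and control as well as in hairpin, which cannot be told apart.

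**Figure D5:**
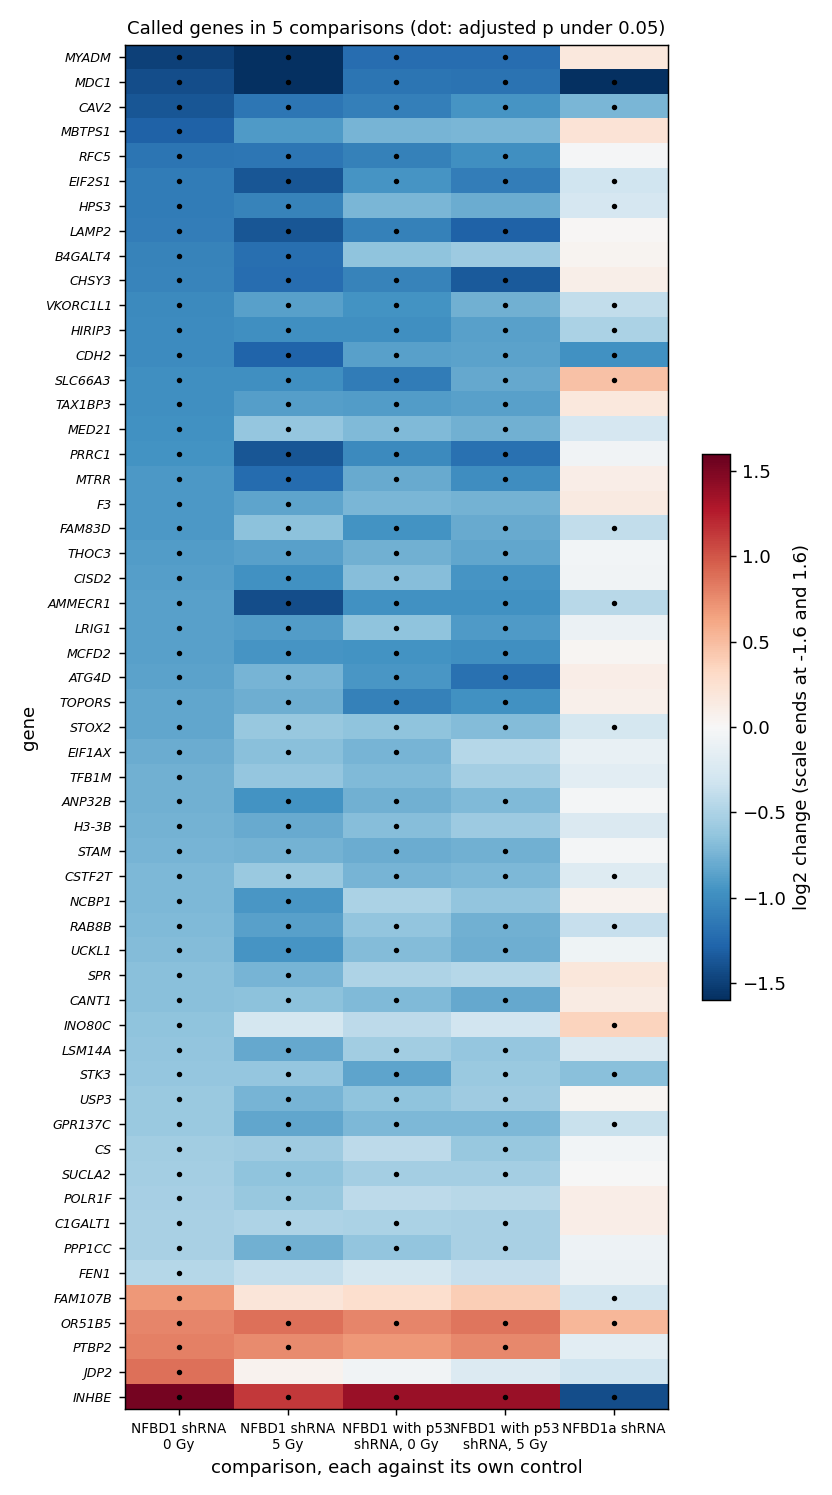
Log2 change of the 55 called genes (rows, ordered by the change in unirradiated cells) in 5 comparisons, each against its own control, where colour gives the log2 change, blue lower and red higher, and a dot marks an adjusted p under 0.05. The first 4 columns, all of the same hairpin, look alike for the genes that fell, while in the NFBD1a column 15 genes carry a dot in the same direction.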

How the data were processed

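RNA of U2OS cells was read on single-colour Illumina bead arrays. The authors deposited probe intensity per array, neither background-subtracted nor normalized between arrays per the file headers and the values, and a detection p-value per probe and array, per the file headers. Another 60 columns stayed unused. A matrix that the authors deposited holds log2-like values with one common distribution (median 6.95 on every array) and no record of how it was made, and served as an alternative.

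Groups and replicate numbers came from sample titles. Intensities of the 24 arrays of the first experiment went through neqc of limma 3.58.1 in R 4.3.3 (normexp background correction, offset 16, quantile normalization, log2). A gene was read from the probe of highest mean among those detected on 3 or more arrays (p-value under 0.01). Group means were fitted with lmFit and eBayes over all 8 groups (16 residual degrees of freedom), called at a Benjamini-Hochberg adjusted p under 0.05. The second experiment (6 arrays) was normalized apart, with the same probes. The number of arrays limits the precision. Of 48802 probes 27577 had 1 gene symbol, 13 several and 21212 none, and 27540 matched RefSeq (GRCh38.p14) for current symbols. Lists are described by counts and medians.

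Same-numbered arrays of the groups deviated together from their group means (correlations 0.41, 0.23 and 0.35; those of other pairs were -0.05 to -0.33), so the replicate number was also fitted as a block.

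The members and gene lists were chosen with earlier results of these data known. Named genes are MDC1, the called genes, the called or smallest-p members of each list, and the 3 of smallest p per interaction. The fit was tested on simulated data.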

Additional observations from a re-analysis of the deposited data

Results flagged for a closer look

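The effect of NFBD1 shRNA at 0 Gy differed from that of NFBD1a shRNA for 35 of the 55 called genes, by limma's test of the difference over 30 arrays (adjusted p under 0.05). Of all genes tested 2.54% differed. The 55 were chosen on arrays that also enter this test, so the count is not independent. It was 22 to 28 when any 1 array was left out. The following values are the log2 change with NFBD1 shRNA minus that with NFBD1a shRNA.

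Among membrane and adhesion genes the difference was -1.67 for MYADM, -1.16 for TAX1BP3, -1.07 for F3, -0.76 for LRIG1 and -0.64 for CAV2. Among genes of the Golgi and secretory pathway it was -1.47 for MBTPS1, -1.14 for CHSY3, -1.11 for B4GALT4, -0.90 for PRRC1, -0.89 for MCFD2, -0.79 for CANT1 and -0.63 for C1GALT1. For lysosomal and traffic genes it was -1.45 for SLC66A3, -1.12 for LAMP2, -0.94 for ATG4D and -0.72 for STAM. In DNA replication and chromatin it was -1.14 for RFC5, -1.01 for INO80C, -0.91 for TOPORS, -0.74 for ANP32B and -0.62 for USP3. In RNA processing, translation and transcription it was -0.85 for THOC3, -0.77 for NCBP1, -0.68 for EIF1AX and -0.64 for POLR1F. In metabolism it was -1.04 for MTRR, -0.85 for SPR, -0.82 for CISD2, -0.64 for VKORC1L1, -0.63 for UCKL1 and -0.54 for SUCLA2. Among the genes that rose it was 3.07 for INHBE, 1.21 for JDP2, 0.99 for FAM107B and 0.98 for PTBP2.

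Among detected probes with no gene symbol, which no comparison of genes used, 10 were lower with NFBD1 shRNA than with control shRNA at 0 Gy (limma adjusted p under 0.05). Their log2 changes were between -1.69 and -0.65.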

How the results depend on the processing

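No called gene changed sign under the alternatives run, and falls outnumbered rises in each of them. The count of 55 was 80 with the authors' matrix, 60 with quantile normalization alone or with an offset of 50, 53 to 59 with other filters, priors or probe averaging, and 72 with every detected probe tested by itself. It was 20 from the 6 arrays alone (where fewer samples estimate the spread), 132 with the chip as a fixed block, 123 with the chip as a random block and 122 with the replicate block, which lost none of the 55 calls and changed no call of an interaction. Leaving out 1 array gave 28 to 41, and 26 of the 55 were called in all 6 such fits. MDC1 was -1.43 from the 6 arrays alone (adjusted p = 0.0987) and -0.98 in the authors' matrix (limma adjusted p = 0.00572). It was -1.12 within chip 2, and -1.59 to -1.15 without 1 array. The interactions with dose and with p53 shRNA called 0 genes in every setting run. The count that differed between hairpins, 316, was 385 with the authors' matrix, 663 with the replicate block within each experiment (added after seeing the data), where 44 of the 55 differed, and 162 to 312 without 1 array. Its split of 163 positive and 153 negative differences has no stable majority: it was 167 and 218 with the authors' matrix and 313 and 350 with the block. The causes of these shifts were not tested. GPR137C, JDP2 and MBTPS1 were not called in the authors' matrix. Dim probes limit what can be seen: MBTPS1 was near background, and its change was -1.29 in the values reported but -0.31 in the authors' matrix, where 18 of the 55 changes were smaller by over 1.5 times, among them ATG4D (-0.22), AMMECR1 (-0.36) and MED21 (-0.39).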
